A study of Mus musculus with 6 samples.

Results

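The genes described here are 10 imprinted genes of the mouse brain, Meg3, Rian, Mirg, Snrpn, Snhg14, Ndn, Kcnq1ot1, Peg3, Grb10 and Nap1l5. They were taken by symbol, and each matched 1 of the 32285 genes in the count tables. Single-nucleus RNA was measured in the prelimbic part of the medial prefrontal cortex of C57BL/6 males in 6 libraries, each made from tissue pooled from 3 animals. Run males were reared by dams that had a running wheel between postnatal days 2 and 21, and Sed males by dams in a standard cage. From weaning at day 21 they were group-housed (GH) or kept in social isolation (SI). Cohort 1 gave 1 GH Run and 1 GH Sed library, from males that had taken part in tube tests and were picked by their rank in them. Cohort 2, naive to those tests, gave 1 library each of GH Run, GH Sed, SI Run and SI Sed. The labels name no transgene or mutation. They give postnatal day 21, the day of weaning, as the age, whereas by the methods of the study the tissue was taken from adults of both cohorts.

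At an imprinted gene 1 parental copy is mostly silenced and the other is transcribed. In many such regions this traces back to DNA methylation laid down in the germ line. Meg3, Rian and Mirg are long noncoding RNAs that are expressed from the maternal copy of the Dlk1-Dio3 region, and they carry small nucleolar RNAs and microRNAs in their introns. Snrpn, a splicing protein gene, Snhg14, the long host of small nucleolar RNAs that runs antisense to Ube3a, and Ndn, which encodes the growth suppressor necdin, are expressed from the paternal copy of the region linked to Prader-Willi syndrome. Kcnq1ot1 is a paternal antisense RNA that silences its neighbours, Peg3 encodes a zinc finger protein, and Nap1l5 is a small intronless gene inside Herc3. Grb10, an adaptor of insulin and growth factor receptors, is known for paternal expression in neurons and maternal expression in most other tissues. The mice were inbred, so reads from the 2 parental copies cannot be told apart, and the values are total levels.

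In mm10 (GENCODE M21) the maternal RNAs lie side by side on the plus strand, Meg3 at chr12:109541001-109571726, Rian at chr12:109603940-109661716 and Mirg at chr12:109729764-109749460. Snrpn (chr7:59982495-60140219) and Snhg14 (chr7:59307924-59975759) lie on the minus strand, and Ndn (chr7:62346569-62350262) lies on the plus strand. Kcnq1ot1 (chr7:143203458-143296549) runs on the minus strand within Kcnq1, which is on the plus strand. Peg3 (chr7:6703892-6730431), Grb10 (chr11:11930508-12038683) and Nap1l5 (chr6:58905233-58907076) are also on the minus strand. Snurf and the read-through gene Gm38393 overlap Snrpn on the same strand, so the counts of Snrpn are uncertain, and Gm38393 also overlaps one end of Snhg14. Kcnq1, Ube3a and Herc3, which overlap Kcnq1ot1, Snhg14 and Nap1l5, lie on the opposite strand.

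The promoter windows of these genes (RefSeq, GRCm38.p6, 250 bases before to 50 after a start) are shown where they hold TGCCGC, the hexamer bound by ZFP57, the protein that keeps methylation at imprinted regions. All 10 genes matched, with 15 windows counted per gene. The window chr7:60450128-60450427 counted for both Snrpn and Snhg14. In all, 4 windows of 4 genes held the hexamer on either strand, against 11.6% of all 32851 windows. GCCATNTT, the core bound by YY1, was in none of the 15 windows and in 6.05% of all windows. The 4 windows follow in the direction of the gene, with each hexamer in capitals. In the first 3 it reads on the opposite strand, as GCGGCA.
Meg3, chr12:109540746-109541045, plus strand: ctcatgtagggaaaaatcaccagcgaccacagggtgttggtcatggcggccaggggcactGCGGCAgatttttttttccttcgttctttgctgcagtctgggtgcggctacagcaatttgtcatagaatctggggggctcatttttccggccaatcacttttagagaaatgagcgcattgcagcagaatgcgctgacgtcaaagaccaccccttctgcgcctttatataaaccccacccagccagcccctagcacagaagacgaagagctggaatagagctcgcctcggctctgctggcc
Snrpn, chr7:60005150-60005449, minus strand: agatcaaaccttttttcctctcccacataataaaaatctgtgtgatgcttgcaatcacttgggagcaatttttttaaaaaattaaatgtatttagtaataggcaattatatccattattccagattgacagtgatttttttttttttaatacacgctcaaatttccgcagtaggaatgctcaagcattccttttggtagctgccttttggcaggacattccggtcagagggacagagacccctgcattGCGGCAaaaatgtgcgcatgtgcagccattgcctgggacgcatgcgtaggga
Grb10, chr11:12037371-12037670, minus strand: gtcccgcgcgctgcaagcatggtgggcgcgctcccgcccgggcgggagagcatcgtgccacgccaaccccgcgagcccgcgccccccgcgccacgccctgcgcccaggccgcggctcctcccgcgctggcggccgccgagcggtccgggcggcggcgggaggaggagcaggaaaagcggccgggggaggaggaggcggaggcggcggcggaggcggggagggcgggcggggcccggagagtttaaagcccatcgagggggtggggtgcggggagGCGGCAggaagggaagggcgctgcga
Nap1l5, chr6:58907077-58907376, minus strand: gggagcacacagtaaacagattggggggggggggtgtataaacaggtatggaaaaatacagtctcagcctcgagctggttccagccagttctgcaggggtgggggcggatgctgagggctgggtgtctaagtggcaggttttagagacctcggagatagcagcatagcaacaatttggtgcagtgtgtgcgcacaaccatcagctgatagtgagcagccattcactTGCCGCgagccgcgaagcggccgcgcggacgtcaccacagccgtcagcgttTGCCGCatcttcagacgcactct
The Nap1l5 window held the hexamer at 2 places. This Grb10 window had 45 CG dinucleotides, more than 98.1% of all windows, whereas the other Grb10 window (chr11:12027922-12028221) had 9. The Meg3 window had 13, that of Nap1l5 17 and that of Snrpn 7, which is also the median of all windows. Methylation was not measured, and the letters are a description only.

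The libraries held 4998 to 9936 nuclei with median depths of 1637 to 6250 unique molecular identifiers (UMIs). GH Sed of cohort 2 was the shallowest. The median background droplet held 19.2% and 20.6% as many UMIs as the median nucleus in cohort 1, against 4.14% to 7.63% in cohort 2. The share of free RNA estimated from the markers of other classes was also higher in cohort 1 for inhibitory nuclei (46.6% and 56.6%, against 20.8% to 26.0%) and astrocytes (38.5% and 37.3%, against 12.6% to 21.6%), whereas in pyramidal nuclei it was 32.7% and 31.7% in cohort 1 and 33.4% to 45.0% in cohort 2. This share was the one removed where the background profile was subtracted. In GH Sed of cohort 2 it was 45.0% in pyramidal nuclei, while the median background droplet had 4.83% of the median nucleus's UMIs. Whether the marker estimate is too high was not tested. Clusters were formed without the imprinted genes and named from class markers. In all, 33863 nuclei were pyramidal and 3750 inhibitory, with 1341 astrocytes, 325 oligodendrocyte precursors, 286 oligodendrocytes and 141 microglia. Kept nuclei of any 2 libraries shared 5 to 22 barcodes, at most 0.428% of the smaller library.

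The 10 genes together gave 1.09% to 1.502% of the UMIs of nuclei. Levels are given as UMIs of a gene per 1000000 UMIs of the class (CPM). Intron and exon reads were both counted, so the levels of different genes were not ranked against each other.

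The maternal RNAs of chromosome 12 were high in all neurons, and highest in layer 5 Chst8 pyramidal nuclei and in 3 of the 4 interneuron types. In pyramidal nuclei Meg3 was at 10037 CPM in GH Run and 11549 in GH Sed of cohort 1, and at 10433 in GH Run, 8814 in GH Sed, 10833 in SI Run and 8823 in SI Sed of cohort 2. In inhibitory nuclei the same libraries gave 14317, 17505, 15594, 13473, 16216 and 13204 CPM. The 2 classes did not overlap, and Meg3 was higher in inhibitory than in pyramidal nuclei of every library. Within the neurons Meg3 ran from 15864 ± 1924 CPM (SD, n = 6) in parvalbumin (PV) nuclei, 15825 ± 1636 in somatostatin (SST) nuclei and 15347 ± 1861 in layer 5 Chst8 nuclei to 8840 ± 1051 in layer 2/3 and 8837 ± 1089 in layer 6 corticothalamic nuclei. PV and SST traded places between libraries, PV being above SST in 3 of 6, whereas VIP nuclei (14194 ± 1451) stood above layer 5 near-projecting nuclei (12087 ± 1310) in 6 of 6. Neuropeptide Y (NPY) nuclei were the lowest interneurons, at 11166 ± 1194 CPM.

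Rian was at 892 ± 198 CPM in layer 5 Chst8 nuclei, 888 ± 267 in PV nuclei and 509 ± 181 in layer 2/3. Mirg, the most distal of the cluster, was at 229 ± 91.4 CPM in PV, 230.3 ± 61.1 in VIP and 102 ± 45.7 in layer 2/3 nuclei. The order of classes was therefore near that of Meg3. Over the means of 17 classes, log2(CPM + 1) of Meg3 correlated with that of Rian at Pearson r = 0.99 and with that of Mirg at r = 0.95. These points share libraries and free RNA, so r is descriptive.

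**Figure D1:**
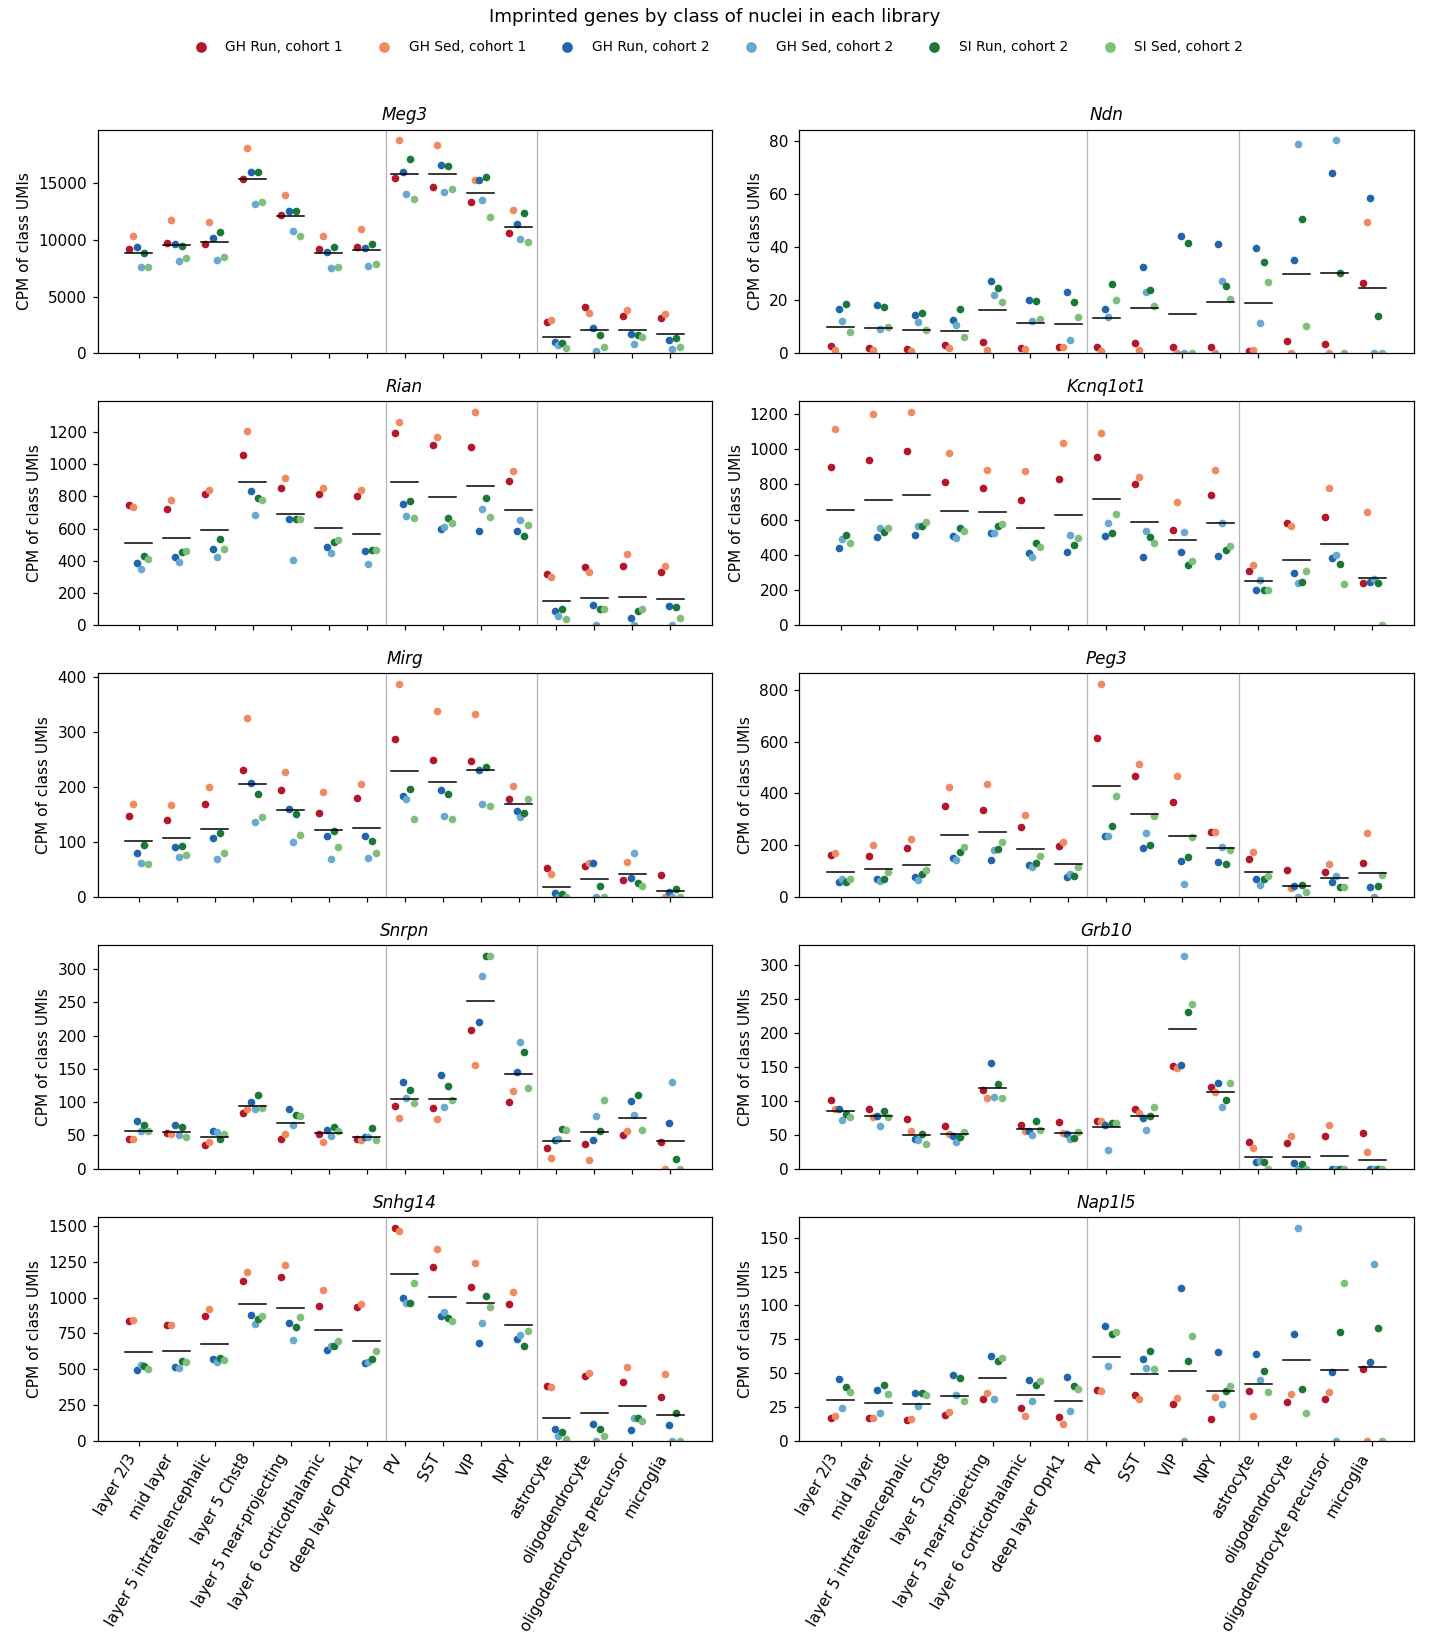
Level of each imprinted gene (CPM of the UMIs of a class, linear axis from 0) in 15 classes of nuclei, with 1 point per library coloured by group and cohort and a bar at the mean of 6 libraries. Pyramidal types stand left of the first line, interneuron types between the lines and glia to the right. Meg3 peaks in layer 5 Chst8, PV, SST and VIP nuclei, Snrpn and Grb10 in VIP nuclei, and in the pyramidal types the 2 cohorts separate for Peg3, Rian and Kcnq1ot1.

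The paternal genes of the Prader-Willi region are described in turn. Snhg14 was highest in PV nuclei (1165 ± 249 CPM) and above SST nuclei (1006 ± 218) in 6 of 6 libraries. Among neurons it was lowest in layer 2/3 (622 ± 170) and mid layer nuclei (626 ± 145). The order of these was not resolved, the mid layer being above in 3 of 6. Snrpn was highest in VIP nuclei, at 209 and 156 CPM in GH Run and GH Sed of cohort 1 and at 221, 290, 319 and 320 CPM in GH Run, GH Sed, SI Run and SI Sed of cohort 2. These values rest on 12 to 92 UMIs, and all were above the NPY value of the same library, which lay between 100 and 191 CPM. PV and SST nuclei did not differ in Snrpn beyond their spread (104 ± 19.2 and 104 ± 24.0 CPM). Ndn was sparse, with means of 8.48 to 16.4 CPM over the 7 pyramidal types, and its order across classes was not resolved.

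Among neurons Kcnq1ot1 ran from 738 ± 291 CPM in layer 5 intratelencephalic nuclei to 483 ± 135 in VIP nuclei. Peg3 was highest in PV nuclei at 614 and 823 CPM in GH Run and GH Sed of cohort 1 and at 236, 234, 273 and 391 CPM in GH Run, GH Sed, SI Run and SI Sed of cohort 2. SST nuclei followed at 321 ± 138 CPM and layer 2/3 was at 97.0 ± 53.9. PV was above SST in 5 of 6 libraries, and SST above layer 5 near-projecting nuclei in 6 of 6. Grb10 was at 152 and 148 CPM in VIP nuclei of GH Run and GH Sed of cohort 1 and at 152, 314, 231 and 243 CPM in GH Run, GH Sed, SI Run and SI Sed of cohort 2. Among pyramidal types it was highest in near-projecting nuclei (119 ± 20.1 CPM), against 50.7 ± 7.86 in layer 5 Chst8 nuclei, where Meg3 was high. The Grb10 ranges of these 2 types did not overlap. Vascular leptomeningeal nuclei gave a Grb10 mean of 199 ± 204 CPM from 1 to 9 UMIs a library, which leaves their place unresolved. Nap1l5 had its highest mean in PV nuclei (62.1 ± 22.0 CPM). Oligodendrocytes (59.6 ± 52.1), microglia (54.2 ± 50.3) and oligodendrocyte precursors (52.4 ± 41.0) overlapped that range, so the top place was not resolved. The Nap1l5 means in layer 2/3, mid layer, layer 5 intratelencephalic and deep layer Oprk1 nuclei, from 26.9 to 30.1 CPM, lay within each other's spread.

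Inhibitory nuclei were compared with pyramidal nuclei over UMI sums per library and class (edgeR quasi-likelihood test, library as a block, 6 classes fitted together, Benjamini-Hochberg adjusted p under 0.05 over 7100 genes). Peg3, Snrpn, Nap1l5 and Mirg were higher in inhibitory nuclei, 4 of 10 members against 23.4% of all genes tested, and no member was lower. Peg3 differed by a log2 fold change of 1.09 ± 0.11 (SE; adjusted p = 3.2e-12), Snrpn by 0.85 ± 0.10 (1.3e-10), Nap1l5 by 0.65 ± 0.10 (1.7e-07) and Mirg by 0.61 ± 0.12 (2.3e-05). Meg3, at 0.43 ± 0.32, did not pass (adjusted p = 0.28). With the background profile subtracted Peg3 (2.39) and Snrpn (4.06) still passed, Mirg (0.73, adjusted p = 0.086) did not, and Nap1l5 was no longer tested. For Snrpn the amount subtracted exceeded the counts in pyramidal nuclei of all cohort 2 libraries and left none there. Background droplets of these libraries held 316 to 387 CPM of Snrpn, and their pyramidal nuclei 58.7 to 70.0. Peg3 was left with none in pyramidal nuclei of GH Sed of cohort 2. Both values rest partly on counts emptied by the subtraction, so they do not check the calls. The median log2 fold change was 0.41 for the members and 0.00 for all genes.

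That fit took the spread of Meg3 from the glia as well, where the libraries differed widely. With pyramidal and inhibitory sums alone, chosen after the data were seen, 9 of 10 members were higher, against 28.2% of 15606 genes. Kcnq1ot1 was lower, by a log2 value of -0.17 ± 0.05 (adjusted p = 0.013), against 23.6% of genes lower. Its ratio to pyramidal nuclei ran from 0.88 to 1.11 and was above 1 in 2 of 6 libraries. Of 14 alternatives only 1, this fit, called Kcnq1ot1. Meg3 then differed by 0.46 ± 0.04 (adjusted p = 3.1e-08), Snhg14 by 0.43 ± 0.05 (3.7e-07), Rian by 0.33 ± 0.05 (7.4e-06), Ndn by 0.49 ± 0.13 (0.0034) and Grb10 by 0.18 ± 0.06 (0.029). Pyramidal markers in inhibitory nuclei were at 0.22 to 0.39 of their level in pyramidal nuclei of the same library.

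**Figure D2:**
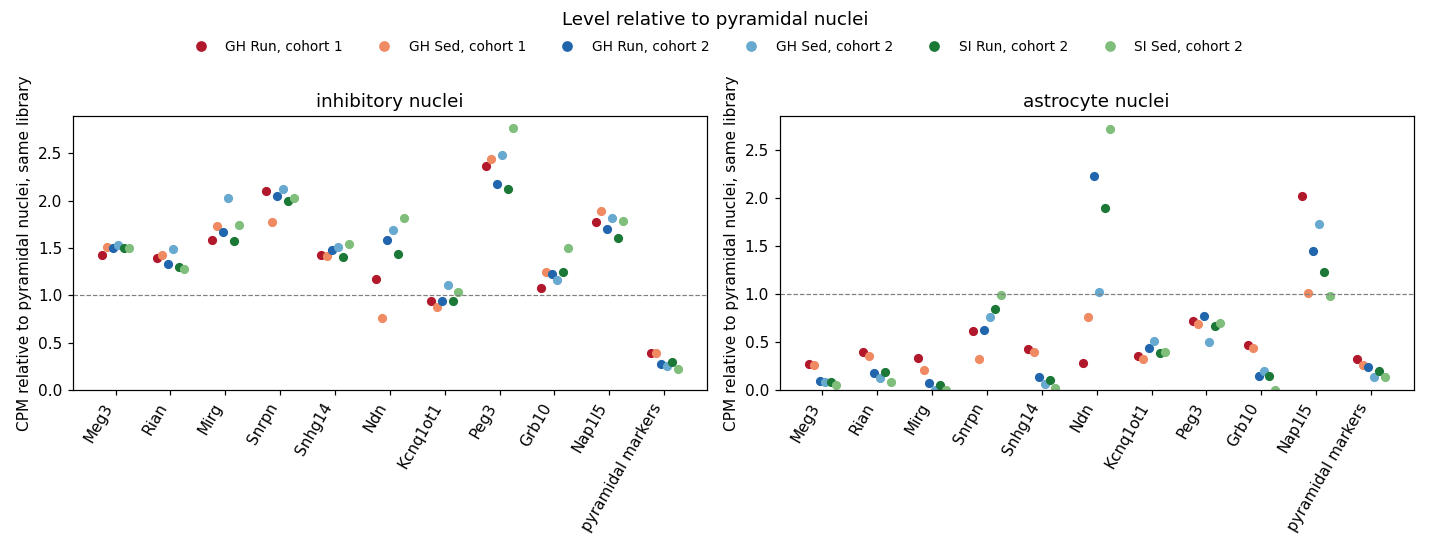
CPM of each imprinted gene in inhibitory nuclei (left) and astrocytes (right) divided by the CPM in pyramidal nuclei of the same library (linear axis from 0), with 1 point per library and the summed pyramidal markers for reference. Peg3 and Snrpn lie above 1 in inhibitory nuclei of every library. In astrocytes Meg3 lies between 0.05 and 0.27 and below the pyramidal markers in every library.

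In glia most members were low, and Nap1l5 and Ndn did not pass the test in either direction. Astrocytes had lower levels of 8 of 10 members than pyramidal nuclei (37.5% of all genes were lower), oligodendrocytes of 8 (30.3%), oligodendrocyte precursors of 7 (27.9%) and microglia of 8 (29.5%). No member was higher in any of these 4 comparisons. The call of Snrpn held in 3 of 13 alternatives in oligodendrocytes and in 10 of 13 in microglia. With the background profile subtracted both turned sign, to 0.57 (adjusted p = 0.83) and 0.37 (0.91). The pyramidal Snrpn counts of cohort 2, the reference in these fits, were emptied by that subtraction. The member medians were -1.76, -1.99, -1.60 and -2.26 on the log2 scale, against -0.07, -0.13, -0.16 and -0.20 for all genes. Median-ratio factors in place of TMM shifted the median of all genes by 0.08, 0.11, 0.11 and 0.17 in these comparisons.

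Meg3 was at 2725 and 2963 CPM in astrocytes of GH Run and GH Sed of cohort 1, and at 950, 694, 900 and 476 CPM in GH Run, GH Sed, SI Run and SI Sed of cohort 2. Every astrocyte value lay below every neuronal value, and the fitted difference was -3.42 ± 0.35 (adjusted p = 3.4e-12). Meg3 in microglia differed by -3.63 ± 0.37 (adjusted p = 6.7e-12), in oligodendrocytes by -3.05 ± 0.35 (2.4e-10) and in precursors by -2.96 ± 0.35 (6.5e-10). The size of these 4 differences changed with the libraries and with free RNA. In cohort 1 alone they were -2.02, -2.20, -1.66 and -1.80 in astrocytes, microglia, oligodendrocytes and precursors, and with the background profile subtracted -7.05, -6.83, -5.42 and -4.28. The ratio to pyramidal nuclei was below that of the pyramidal markers in 6 of 6 libraries for astrocytes, oligodendrocytes and microglia, and in 4 of 6 for precursors. Mirg was at 0 UMIs in astrocytes of the 2 cohort 2 Sed libraries, where 3 UMIs would be 33.6 and 13.5 CPM, and differed from pyramidal nuclei by -2.64 ± 0.19 (adjusted p = 3.1e-17), or by -4.86 with the background profile subtracted. Grb10 was at 0 UMIs in precursors and in microglia of all 4 cohort 2 libraries. There 3 UMIs would be 15.02 to 241 CPM in precursors and 29.2 to 393 CPM in microglia. In cohort 1, GH Run had 14 and GH Sed 9 Grb10 UMIs in precursors. The share of free RNA estimated in precursors was 38.7% and 40.5% in cohort 1 and 9.66% to 28.7% in cohort 2, and its part in these counts was not tested.

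Kcnq1ot1 and Peg3 were also lower. In astrocytes Kcnq1ot1 differed by -1.61 ± 0.19 (adjusted p = 3.0e-10) and Peg3 by -0.77 ± 0.14 (3.0e-06), and their ratios to pyramidal nuclei, 0.32 to 0.51 and 0.50 to 0.77, were above those of the pyramidal markers (0.13 to 0.32) in 6 of 6 libraries. Snrpn was lower in astrocytes by -0.90 ± 0.16 (adjusted p = 2.7e-06), while in oligodendrocyte precursors the difference was -0.01 ± 0.22 (0.98) with ratios of 0.99 to 1.57. Nap1l5 had ratios of 0.98 to 2.03 in astrocytes, and its fitted difference of 0.28 ± 0.15 did not pass (adjusted p = 0.094). Ndn in astrocytes rested on 1 to 21 UMIs a library, and its difference of 0.59 ± 0.29 did not pass (0.072). With the background profile subtracted Peg3 (-0.44, adjusted p = 0.44) and Snrpn (-2.05, 0.32) no longer passed in astrocytes. Snrpn in pyramidal nuclei of cohort 2 was emptied by the subtraction. In cohort 2 alone and without GH Sed of cohort 1 Snrpn differed by -0.54 (adjusted p = 0.0091) and -0.56 (0.0023).

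The count tables also hold barcodes with fewer UMIs, taken here as droplets without a nucleus, and these were compared with the kept nuclei. Background droplets were the barcodes ranked after the first 30000 and up to 70000 by UMIs in each library. They held 891 to 1265 UMIs in GH Run and 1085 to 1536 in GH Sed of cohort 1. Kept nuclei there had at least 2451 and 3155 UMIs. In GH Sed of cohort 2 background droplets held 65 to 96 UMIs, and kept nuclei at least 620. That none of them held a nucleus was not tested. Nuclei had higher shares of Kcnq1ot1, Mirg, Meg3 and Snhg14, 4 of 10 members against 26.4% of 19247 genes. They had lower shares of Ndn, Nap1l5 and Snrpn, 3 members against 27.8% of genes (edgeR).

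Kcnq1ot1 in nuclei was 2.14 to 3.98 times its background level and differed by 1.60 ± 0.23 (log2, SE; adjusted p = 0.0021). Mirg differed by 1.20 ± 0.16 (0.0019), Meg3 by 1.17 ± 0.36 (0.026) and Snhg14 by 0.89 ± 0.32 (0.042). The calls of Meg3 and Snhg14 each held in 6 of 11 alternatives, and those of Kcnq1ot1 and Mirg in 11 of 11. Snhg14 was 0.95 and 0.99 times its background level in cohort 1 and 1.91 to 2.89 times in cohort 2. Ndn in nuclei was at 2.504 and 1.64 CPM in GH Run and GH Sed of cohort 1, and at 18.96, 11.5, 19.004 and 11.2 CPM in GH Run, GH Sed, SI Run and SI Sed of cohort 2. In background droplets of the same libraries it was at 11.5, 4.88, 235, 203, 237 and 221 CPM, so that it differed by -3.20 ± 0.37 (adjusted p = 0.0015). Nap1l5 differed by -2.30 ± 0.32 (0.0019) and Snrpn by -1.60 ± 0.34 (0.0064). In cohort 1 alone these 3 differences were -1.93, -1.21 and -0.40, all of which passed, whereas Meg3 (0.51, adjusted p = 0.54) and Snhg14 (-0.06, 0.90) did not. With barcodes under 100 UMIs as background Meg3 differed by 0.68 (adjusted p = 0.049), Mirg by 0.51 (0.031) and Snrpn by -0.99 (0.015). Rian (0.42 ± 0.21), Peg3 (-0.31 ± 0.20) and Grb10 (0.69 ± 0.27) did not pass (adjusted p = 0.11, 0.22 and 0.060).

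**Figure D3:**
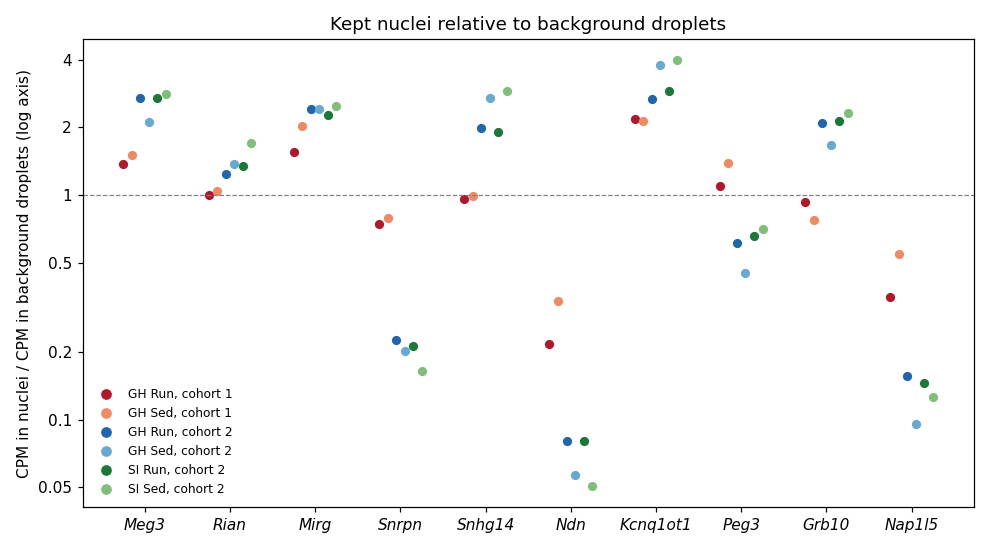
CPM of each imprinted gene in kept nuclei divided by its CPM in background droplets (log axis), with 1 point per library. Kcnq1ot1, Mirg and Meg3 lie above 1 in all 6 libraries. Snrpn, Ndn and Nap1l5 lie below 1 in all 6, with Ndn between 0.05 and 0.34.

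Maternal running was tested as Run against Sed over the 6 libraries, with cohort and housing in the fit. In pyramidal nuclei 0 of 10 members passed, as did 0% of 17963 genes. At an unadjusted p under 0.05 there were 2 members and 1338 genes, and DESeq2 called 0 members and 50 genes. In inhibitory nuclei 0 members passed (0.102% of 12737 genes), with 1 member and 769 genes at an unadjusted p under 0.05 and 0 members by DESeq2. In astrocytes 0 members passed (0.0831% of 8426 genes), with 2 members and 497 genes at an unadjusted p under 0.05 and 0 members by DESeq2. In pyramidal nuclei Ndn was higher in Run than in Sed in 3 of 3 pairs, with log2 ratios of 0.63 in cohort 1 and of 0.69 (GH) and 0.87 (SI) in cohort 2. Its fitted difference of 0.68 ± 0.13 had an adjusted p of 0.66. Grb10 (0.31, 0.26 and 0.09), Snrpn (0.03, 0.24 and 0.25) and Nap1l5 (0.01, 0.77 and 0.19) were also higher in Run in each of these pairs. Ndn in background droplets was also higher in Run in these pairs, at 11.5 against 4.88 CPM, 235 against 203 and 237 against 221. The median background droplet, as a share of the median nucleus, was 19.2% in Run and 20.6% in Sed of cohort 1, 7.63% and 4.83% in the GH pair and 7.44% and 4.14% in the SI pair of cohort 2. The part of free RNA in the Ndn ratios was not tested. Without either cohort 1 library the fit rests on the 4 cohort 2 libraries, with 1 residual degree of freedom. The counts then became 4 in pyramidal nuclei (Meg3, Mirg, Ndn and Nap1l5, all higher in Run), 1 in inhibitory nuclei (Peg3, lower) and 1 in astrocytes (Meg3, higher). Without GH Run and without GH Sed of cohort 1, 6.86% and 6.83% of all genes were higher in pyramidal nuclei, 1.73% and 1.65% lower in inhibitory nuclei and 0.252% and 0.241% higher in astrocytes.

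The Run to Sed ratio of Meg3 had opposite signs in the 2 cohorts. In pyramidal nuclei the log2 ratio of Run to Sed was -0.20 in cohort 1 (95% counting interval -0.21 to -0.20), and 0.24 (0.23 to 0.25) in the GH pair and 0.30 (0.29 to 0.30) in the SI pair of cohort 2. Mirg gave -0.30 (-0.35 to -0.25), 0.51 (0.40 to 0.62) and 0.49 (0.40 to 0.58) in the same pairs. Rian, which lies between them, gave -0.08, 0.17 and 0.09. The test of the difference between cohorts in the Run effect called Meg3 and Mirg in pyramidal nuclei (4.76% of 18717 genes were higher), Meg3 in inhibitory nuclei (0.548% of 13510) and Meg3 in astrocytes (0.113% of 9694). No other member passed in these 3 classes.

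The fitted differences were 0.34 ± 0.10 for Meg3 (adjusted p = 0.0095) and 0.67 ± 0.14 for Mirg (4.6e-05) in pyramidal nuclei. Meg3 differed by 0.44 ± 0.12 (0.022) in inhibitory nuclei and by 0.90 ± 0.22 (0.029) in astrocytes. The fit leaves 1 residual degree of freedom, which comes from cohort 2 alone, since cohort 1 has 1 library per group and adds no spread. The counting intervals do not cover differences between animals. With the background profile subtracted the pyramidal differences were 0.32 for Meg3 (adjusted p = 0.23) and 0.66 for Mirg (0.18). Those of Meg3 were 0.60 in inhibitory nuclei (0.0059) and 9.75 in astrocytes. In GH Run of cohort 1 Meg3 was at 2725 CPM in astrocytes and 7294 in background droplets, and the share subtracted was 38.5%. This exceeded the counts and left no Meg3 in astrocytes of that library, so the 9.75 is set by the subtraction. The astrocyte value without subtraction did not pass with a limit of 1000 genes (adjusted p = 1.00) or without marked doublets (0.65, 0.70). With a limit of 1000 genes Meg3 did not pass in pyramidal nuclei either. In pyramidal nuclei the Meg3 call held in 4 of 7 alternatives and that of Mirg in 6 of 7. DESeq2 called Mirg in pyramidal nuclei (adjusted p = 0.041) but not Meg3 in any of the 3 classes (0.42, 1.00 and 1.00). In cohort 1 the Run and Sed males were also picked by rank, which cannot be told apart from the dam's cage. In each pair the library with more Meg3 was also the one with more UMIs per nucleus. The medians were 5585 in Run and 6250 in Sed of cohort 1, 3396.5 and 1637 in the GH pair of cohort 2, and 4032.5 and 3599.5 in the SI pair. The part of depth in this difference was not tested.

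**Figure D4:**
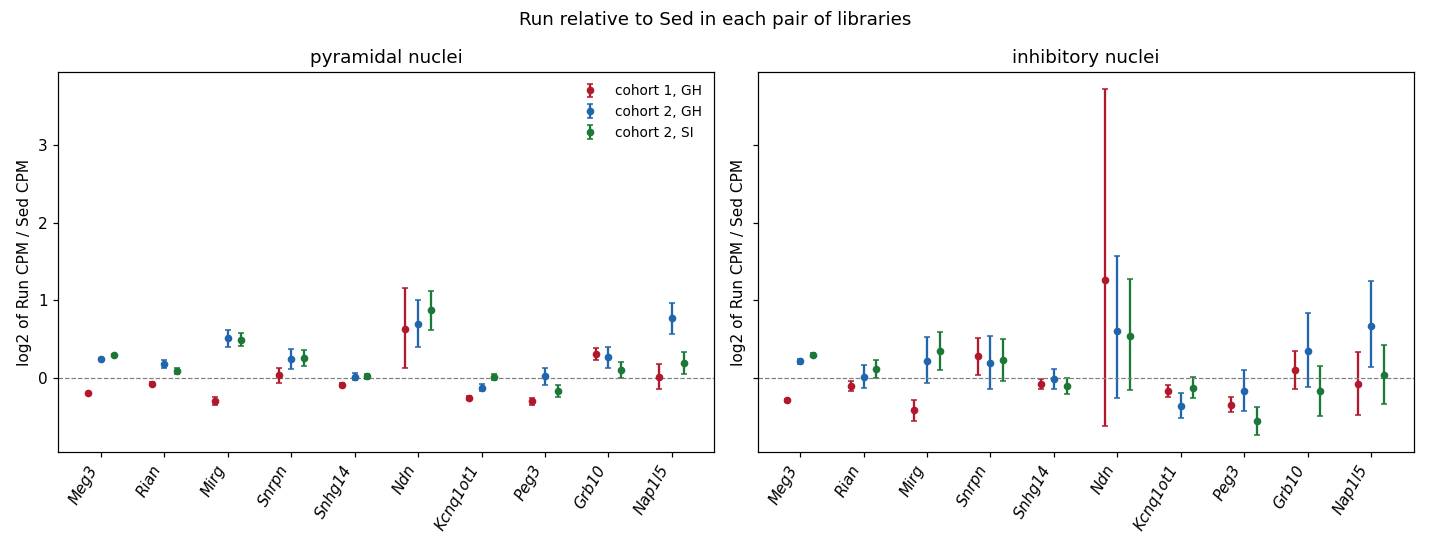
Log2 ratio of Run CPM to Sed CPM for each imprinted gene in pyramidal (left) and inhibitory (right) nuclei, with 1 point per pair of libraries and bars for the 95% counting interval. For Meg3 and Mirg the cohort 1 pair lies below 0 and both cohort 2 pairs lie above 0 in each class. The points of Ndn and of Snrpn lie above 0 in every pair of both classes, and the intervals of Ndn include 0 in inhibitory nuclei. Those of Snrpn include 0 in the cohort 1 pair of pyramidal nuclei and in both cohort 2 pairs of inhibitory nuclei.

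Social isolation was tested as SI against GH. In pyramidal nuclei 0 of 10 members passed (0% of 17963 genes), with 1 member and 169 genes at an unadjusted p under 0.05. In inhibitory nuclei 0 passed (0% of 12737 genes), with 1 member and 154 genes at an unadjusted p under 0.05. In astrocytes 0 passed (0.0237% of 8426 genes), with 0 members and 342 genes at an unadjusted p under 0.05. DESeq2 called 0 members in each. Peg3 had the largest value in pyramidal nuclei, where SI and GH gave 103 and 90.4 CPM in Run and 117 and 89.1 CPM in Sed males of cohort 2. Its fitted difference was 0.30 ± 0.10 (adjusted p = 1.00).

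The cohorts differed at most members. In pyramidal nuclei Ndn and Nap1l5 were higher in cohort 2 (20.3% of all genes were), and 6 members were lower (17.8% of genes), Peg3, Kcnq1ot1, Mirg, Rian, Snhg14 and Grb10. The Grb10 call held in 8 of 13 alternatives, and those of the other lower members in 12 of 13 each. In inhibitory nuclei Ndn and Nap1l5 were again higher (19.1%) and 5 members lower (15.9%), all but Grb10 of those 6. In astrocytes Ndn was higher (16.6%) and 7 members were lower (13.7%), those 6 and Meg3. Cohort, tube test history, choice by rank and library preparation cannot be told apart here.

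Ndn in pyramidal nuclei was at 2.43 and 1.57 CPM in GH Run and GH Sed of cohort 1, and at 17.7, 10.95, 18.1 and 9.89 CPM in GH Run, GH Sed, SI Run and SI Sed of cohort 2, a difference of 2.67 ± 0.17 (log2, SE; adjusted p = 5.7e-04). Peg3 was at 201 and 248 CPM in cohort 1 and between 89.1 and 117 in cohort 2, a difference of -1.47 ± 0.10 (7.1e-04). Kcnq1ot1 was at 879 and 1054 CPM against 465 to 520 (-1.15 ± 0.10, adjusted p = 0.0012), and Rian at 795 and 838 against 439 to 540 (-0.97 ± 0.10, adjusted p = 0.0016). For these genes the cohorts did not overlap, but how many of all genes also did not overlap was not counted. Meg3 (-0.33 ± 0.14, adjusted p = 0.11) and Snrpn (0.22 ± 0.10, adjusted p = 0.13) did not pass in pyramidal nuclei. In astrocytes Meg3 differed by -1.86 ± 0.16 (2.7e-27) and Snhg14 by -2.54 ± 0.26 (1.3e-20). In a fit with 2 residual degrees of freedom, p-values this small rest mainly on spread shared across genes. The pyramidal markers in astrocytes were at 0.32 and 0.26 of their pyramidal level in cohort 1 and at 0.13 to 0.24 in cohort 2. In background droplets Ndn was at 4.88 and 11.5 CPM in cohort 1 and at 203 to 237 CPM in cohort 2. The part of free RNA in the cohort differences was not tested. With the background profile subtracted none of the 8 members then tested passed in pyramidal nuclei, and Ndn and Nap1l5, the 2 that had been higher, were no longer tested. For Ndn and Nap1l5 the amount subtracted exceeded the counts in pyramidal nuclei of every cohort 2 library. Kcnq1ot1 then differed by -0.91 (adjusted p = 0.096), Rian by -0.74 (0.099), Mirg by -0.87 (0.12), Snhg14 by -0.27 (0.24) and Grb10 by 0.05 (0.87). Peg3 differed by -3.80 ± 1.96 (0.28). In inhibitory nuclei 1 of 9 members then tested passed, Peg3 (-1.97, adjusted p = 0.046), while Nap1l5 turned sign (-7.26 ± 1.56, adjusted p = 0.083) and Ndn was no longer tested. The subtraction had left no Nap1l5 in inhibitory nuclei of most cohort 2 libraries. In astrocytes Peg3 alone of 3 members then tested passed (-1.63, adjusted p = 0.0070), Meg3 turned sign (1.49 ± 0.63, 0.15), and Snhg14 was no longer tested. Meg3 in astrocytes of GH Run of cohort 1 had been emptied by the subtraction. Without GH Run of cohort 2 the higher level of Nap1l5 did not pass in pyramidal (0.46, adjusted p = 0.16) or inhibitory nuclei (0.43, 0.42). Without GH Run of cohort 1 Snhg14 in astrocytes differed by -4.11.

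**Figure D5:**
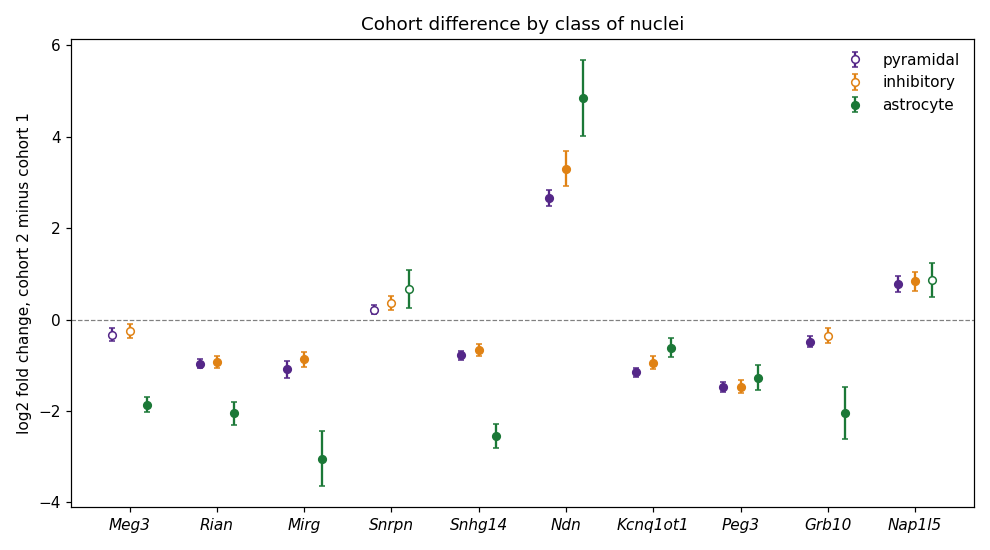
Fitted log2 fold change of cohort 2 against cohort 1 for each imprinted gene in pyramidal nuclei, inhibitory nuclei and astrocytes, with bars for the SE and filled points where the adjusted p was under 0.05. Ndn lies far above 0 in all 3 classes, Peg3, Rian, Mirg, Snhg14 and Kcnq1ot1 lie below 0 in all 3, and Meg3 is filled only in astrocytes.

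The other imprinted genes of a list of 57, of which 55 were in the tables, were compared in the same fits. In inhibitory against pyramidal nuclei 7 of 20 tested were higher (23.4% of all genes), led by Inpp5f and Usp29, and 6 lower (25.6%), led by Kcnk9 and Ppp1r9a. In astrocytes 7 of 20 were higher (31.1% of all genes), led by Gab1 and Nnat, and 10 lower (37.5%), led by Rasgrf1 and Usp29. In nuclei against background droplets 11 of 47 were higher (26.4% of all genes), led by Airn and Rtl1, and 19 lower (27.8%), led by Peg13 and Dio3. Between cohorts, 6 of 43 were higher (20.3% of all genes) and 9 lower (17.8%) in pyramidal nuclei, led by Chrac1 and Kcnk9. For the maternal effect by cohort 3 of 45 were higher (4.76% of all genes), led by Airn and Tssc4, and 3 lower (7.98%), led by Ube3a and Rtl1, in pyramidal nuclei. In inhibitory nuclei 2 of 36 were lower (1.99% of all genes), Ube3a and Rtl1. In astrocytes 0 of 25 passed, with 2 of them and 497 of all genes at an unadjusted p under 0.05. None passed for maternal running or isolation in any of the 3 classes.

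Over the means of 17 classes, among 7397 genes with at least 50 CPM in a class, Snhg11, another noncoding host of small nucleolar RNAs, was most like Meg3 (r = 0.99), Rian (0.99) and Snhg14 (0.98). Ube3a, to which Snhg14 runs antisense, was among the 3 other genes most like Meg3, Rian and Snhg14 (r = 0.97, 0.96 and 0.96). Mirg was most like B830012L14Rik (0.96), Kcnq1ot1 like Syn1 (0.94) and Grb10 like Afdn (0.92). The largest r for Snrpn was 0.90, with 4930555F03Rik, for Nap1l5 0.91, with Depdc5, and for Ndn 0.96, with Rps6kb1. Ndn was sparse and its order across classes was not resolved, so its r rests on uncertain means.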

How the data were processed

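Nuclei of the prelimbic cortex were profiled in 6 libraries (Chromium 3' V3), each pooled from 3 males. The authors deposited raw counts of unique molecular identifiers per gene and barcode, made with Cell Ranger 6.0.0 on mm10 with introns included, for all barcodes. The counts are strand-specific, and the kit is directed at the 3' end of transcripts. As introns were included, counts need not lie near that end. No column was left unmapped to a library.

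Barcodes with 500 to 4000 genes, at most 1% mitochondrial counts and a minimum of UMIs, set per library as the 99th percentile of its largest barcodes divided by 10, were kept as nuclei. Each cohort was clustered (scanpy 1.11.5, Pearson residuals with theta 100 on 3000 genes, 35 components, 20 neighbours, Leiden at 0.6, then 1.0 for inhibitory and 1.5 for non-neuronal nuclei), leaving out the imprinted genes. Classes were named from fixed markers, so names were rebuilt here. After the data were seen, 2 clusters (74 inhibitory and 175 pyramidal nuclei) whose leading genes held more markers of another subtype lost their subtype name and stayed in their class, as did 1 of 139 pyramidal nuclei that had none of its own markers among its 10 leading genes and shared more of them with other subtypes. Mixed clusters (1473 nuclei) and unnamed clusters (1276) entered no class comparison. Doublets were otherwise left in, and scrublet marked 1.30% to 7.35% of nuclei.

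Counts were summed per library and class and tested with edgeR 4.0.16 (TMM, filterByExpr, quasi-likelihood, Benjamini-Hochberg over all genes, threshold 0.05, R 4.3.3) after tests on simulated data. All 10 genes passed the filter in these fits. Maternal, housing and cohort terms were fitted together, with 2 residual degrees of freedom, and the maternal effect by cohort left 1. The test also shares spread across genes, so a very small p does not measure spread between libraries alone. The cohort number given in the labels was the block, and the labels name no batch. Classes were compared with library as the block. SE is the log2 fold change divided by the square root of F. Intervals are exact, at 95%, and cover counting error only. The alternatives were DESeq2 1.42.0, median-ratio factors, no filter on low counts, no UMI minimum, a limit of 1000 genes, subtraction of the background profile, removal of marked doublets, other background droplets, subsets of libraries and each library left out.

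The named genes are the 10 members and up to 2 others per direction with the smallest adjusted p among 57 further imprinted genes. Up to 3 genes outside the members were also named as most like each member over class means of log2(CPM + 1). The genes most like Peg3 are not reported here. Members and lists were chosen with earlier results of these data known.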

Additional observations from a re-analysis of the deposited data

Results flagged for a closer look

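The effect of maternal running differed between the cohorts by the edgeR interaction test for Meg3 in pyramidal nuclei (log2 difference of cohort 2 minus cohort 1 of 0.34), for Mirg in pyramidal nuclei (0.67), for Meg3 in inhibitory nuclei (0.44) and for Meg3 in astrocytes (0.90). Cohort 1 has 1 pair of libraries and cohort 2 has 2. The cohorts also differ in tube testing, in choice of animals by rank and in free RNA, which cannot be told apart from each other.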

How the results depend on the processing

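Of 224 counts of members recomputed under an alternative, 198 stayed within 1.5 times the reported count and 26 did not. The 69 differences of single members that passed had 854 values under alternatives, of which 780 kept their direction and side of the threshold, 68 no longer passed and 6 changed sign. Of the 111 that did not pass, 51 changed sign under at least 1 alternative and 24 passed under at least 1. Without the cohort as replicate block 0 members passed for maternal running in each of the 3 classes, as with it.

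Leaving out each library in turn gave 0 to 4 members called for maternal running in pyramidal nuclei, 0 to 1 in inhibitory nuclei and 0 to 1 in astrocytes, and 4 to 8 for the cohort difference in astrocytes, with 4 when GH Run of cohort 2 was left out. Where 1 cohort 1 library is left out, the cohort term takes up the other, which leaves 1 residual degree of freedom. DESeq2 called 4 members for the cohort difference in astrocytes, and for the maternal effect by cohort 1 in pyramidal nuclei, 0 in inhibitory nuclei and 0 in astrocytes. A limit of 1000 genes gave 1 for the maternal effect by cohort in pyramidal nuclei, 0 in astrocytes and 4 for the cohort difference in astrocytes, with 1 astrocyte left in GH Sed of cohort 2. Without marked doublets the maternal effect by cohort was called for 0 members in astrocytes. With no filter on low counts and with no UMI minimum it was called for 2 members in inhibitory nuclei.

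Subtraction of the background profile gave 0 members for the cohort difference in pyramidal nuclei, 1 in inhibitory nuclei and 1 in astrocytes. It gave 0 for the maternal effect by cohort in pyramidal nuclei, 2 in inhibitory nuclei and 2 of 8 tested for inhibitory against pyramidal nuclei, where Nap1l5 was not tested and Mirg differed by 0.73 (adjusted p = 0.086). For the cohort difference in inhibitory nuclei it left Peg3 (-1.97, adjusted p = 0.046), while Kcnq1ot1 (-1.08, 0.067), Rian (-0.94, 0.071), Mirg (-1.16, 0.086) and Snhg14 (-0.54, 0.16) no longer passed. Among differences that had passed, it turned the sign for Grb10 (0.052), Nap1l5 (-7.26) and Meg3 (1.49) in the cohort difference in pyramidal nuclei, inhibitory nuclei and astrocytes, and for Snrpn in oligodendrocytes (0.57) and microglia (0.37) against pyramidal nuclei. It had emptied Snrpn in pyramidal nuclei of cohort 2 and Nap1l5 in inhibitory nuclei of most cohort 2 libraries. Meg3 in astrocytes of GH Run of cohort 1 was emptied too. Alternatives chosen after the data were seen changed the count for inhibitory against pyramidal nuclei, to 8 in cohort 2, 7 in cohort 1 and 10 with these classes alone. With these classes alone 28.2% of 15606 genes were higher and 23.6% lower. For most other alternatives in this section the share of all genes is not reported here, and those counts describe the members only. In cohort 1 alone Snhg14 was lower in nuclei than in background droplets (-0.059). The causes were not tested. Few nuclei limit several classes, as in GH Sed of cohort 2 with 13 oligodendrocytes, 9 microglia, 4 vascular leptomeningeal and 2 endothelial or pericyte nuclei.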
